A study of Arabidopsis thaliana with 12 samples.

Results

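Transcripts of the beta subunits of SnRK1 and of a protein phosphatase of the 2C class were followed in wild-type Arabidopsis thaliana of ecotype Columbia 0. The members are 2 of the 3439 rows of an expression array: the row annotated to AKINBETA1 and AT4G16360 together, and the row annotated to AT1G67820 alone. Both were chosen by their intensities in treated against water plants, as genes of protein phosphorylation, so their differences between treated and water plants are given as a description, without a test. Of 12 arrays of total RNA, 6 were from treated plants, which received staurosporine (2 µM, 4 h) followed by ascorbate (25 mM, pH 5.5, 4 h), and 6 were from plants kept in water for 8 h. All plants were wild type. Staurosporine blocks many protein kinases at their ATP site, and ascorbate is vitamin C, an abundant antioxidant in plants. No group received either compound alone or a solution at pH 5.5 without ascorbate, so the compounds, their order and this pH cannot be told apart. The labels do not name the organ, the age of the plants or the origin of the replicates, so each p-value reflects only how these samples scatter, and that scatter may be technical.

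SnRK1 is the plant relative of yeast SNF1 and animal AMPK, a kinase complex that is active when energy is short and is held back by sugar phosphates. It is built from a catalytic alpha subunit, a regulatory gamma-type subunit and a beta subunit that holds the complex together and influences where it sits in the cell. AKINBETA1 (KINbeta1) and AT4G16360 (KINbeta2) encode beta subunits with a carbohydrate-binding module. Phosphatases of the 2C class remove phosphate from serine and threonine and switch off kinases, among them SnRK1, the SnRK2 kinases of abscisic acid signalling and stress-activated MAP kinases.

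The row annotated to AKINBETA1 and AT4G16360 was brighter in each treated sample than in any water sample. Its intensity was 1.99, 2.09, 1.82, 1.91, 1.41 and 1.48 in treated replicates 1 to 6, against 0.638, 0.676, 0.540, 0.541, 0.446 and 0.480 in water replicates 1 to 6. The groups were far apart, and within each group replicates 5 and 6 were the dimmest. The mean intensity was 1.78 ± 0.276 in treated plants and 0.554 ± 0.0885 in water plants (SD, n = 6 each), a ratio of 3.22. The lowest treated value was 2.09 times the highest water value. Because the row carries both genes, its signal cannot be divided between the 2 beta subunits, and it was the single row on the array that carried either of them. In bulk RNA, a change in the share of cells of a type and a change in RNA per cell cannot be told apart.

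The row annotated to AT1G67820 was also brighter in each treated sample than in any water sample. Its intensity was 0.550, 0.536, 0.368, 0.387, 0.345 and 0.386 in treated replicates 1 to 6, against 0.187, 0.174, 0.135, 0.119, 0.147 and 0.167 in water replicates 1 to 6. Treated replicates 1 and 2 stood above the other treated arrays, and water replicates 3 and 4 were the dimmest of theirs. The mean was 0.429 ± 0.0899 in treated plants and 0.155 ± 0.0257 in water plants (SD, n = 6 each), a ratio of 2.77. The lowest treated value was 1.85 times the highest water value. Neither row was listed at 0 on any array. The lowest AT1G67820 intensity was 7.56 times, and the lowest AKINBETA1/AT4G16360 intensity 28.4 times, the floor of 0.0157 given to zeros in the log2 values.

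**Figure D1:**
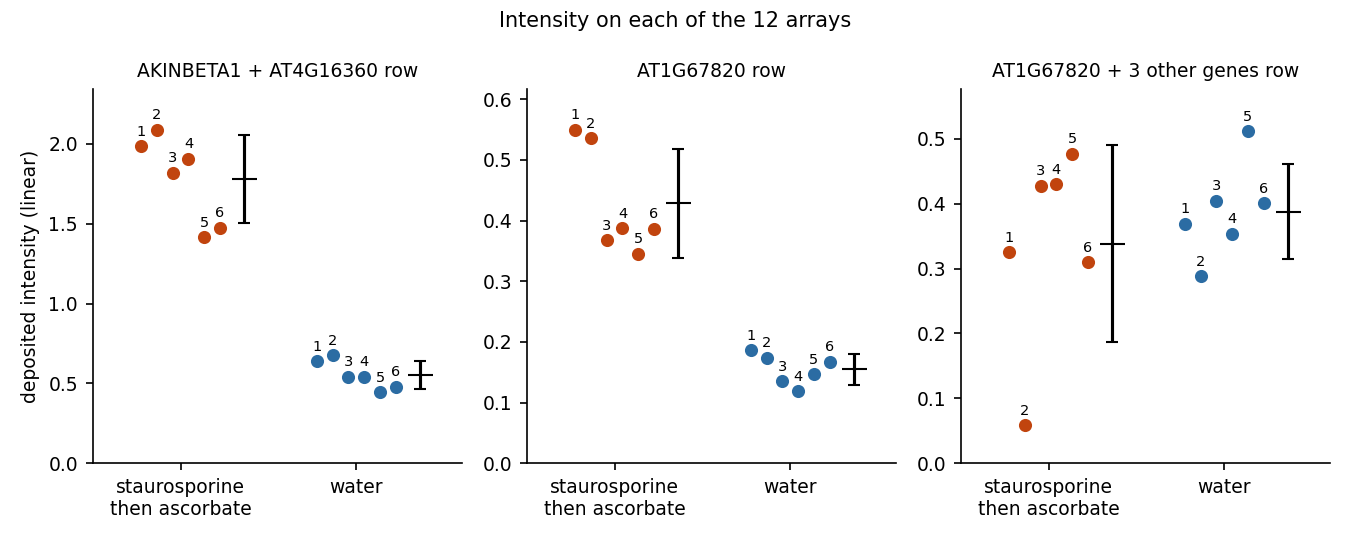
Deposited linear intensity (vertical axes, each from 0) of 3 array rows on 6 treated arrays (orange, left) and 6 water arrays (blue, right), numbered by replicate; the bar beside each group is the mean with its SD. In the AKINBETA1 + AT4G16360 row and the AT1G67820 row every treated array lies above every water array, while the groups overlap in the row that carries AT1G67820 with 3 other genes.

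To compare the arrays on one scale, zeros were set to the floor and the log2 intensities were quantile-normalized, and a linear model (limma) was fitted to all 3439 rows. On this scale the AKINBETA1/AT4G16360 row differed by 1.76 ± 0.124 (log2, treated minus water, SE), a 3.39-fold higher level in treated plants. The AT1G67820 row differed by 1.61 ± 0.185, a 3.05-fold higher level. Of all rows, 32.9% passed an adjusted p of 0.05 in limma, 16.7% higher and 16.2% lower in treated plants. Among the called rows, 50.7% were higher, against 39.2% (421 higher and 654 lower) without normalization between arrays. On means of adjacent arrays, 12.2% of rows were called, 236 higher and 182 lower. Each treated intensity exceeded each water intensity in 7.04% of rows, and 9.01% of rows had a log2 difference of at least 1. The AKINBETA1/AT4G16360 row ranked 62 and the AT1G67820 row 90 of 3439 rows by log2 difference. Among rows of their own kind of annotation, they ranked 18 of 870 rows with several genes and 12 of 692 rows with 1 gene. Among the 2680 rows above 0 on all arrays, 0.784% had a lowest treated intensity at least 2 times the highest water intensity, and the AKINBETA1/AT4G16360 row was among them. These ranks describe how the rows were chosen and carry no test.

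**Figure D2:**
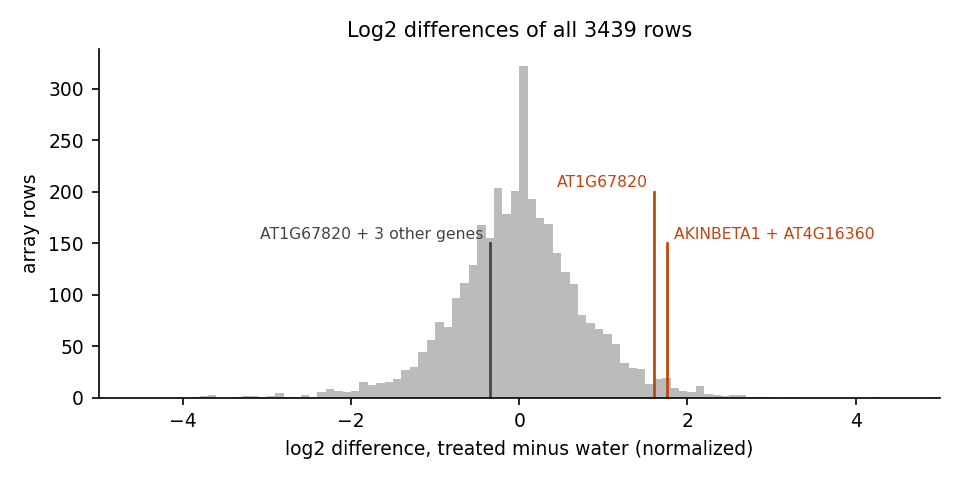
Number of array rows (vertical axis) by log2 difference between treated and water plants (horizontal axis, normalized values) for all 3439 rows. Vertical lines mark the AKINBETA1 + AT4G16360 row at 1.76, the AT1G67820 row at 1.61 and the row that carries AT1G67820 with 3 other genes at -0.35.

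The ratio between same-numbered arrays was steadier for the beta subunit row than for nearly all rows. The treated over water ratio of its deposited intensities was 3.11, 3.09, 3.37, 3.53, 3.17 and 3.07 in numbers 1 to 6. On the log2 scale these ratios had an SD of 0.0805, against a median of 0.395 over the 2680 rows above 0 on all arrays, of which 0.336% had a smaller SD. For the AT1G67820 row the ratios were 2.94, 3.08, 2.73, 3.26, 2.35 and 2.31. Their SD was 0.205 on the log2 scale, and 13.2% of those rows had a smaller one. Both rows were chosen by these same intensities, and the pairing by number rests on the values, so these shares are a description. Numbers 5 and 6 gave the lowest 2 ratios for AT1G67820, which was not so for the beta subunits.

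Within groups, both rows varied with the array number. In the normalized log2 values of the AKINBETA1/AT4G16360 row, replicates 5 and 6 averaged 0.61 and replicates 1 to 4 averaged 0.94 in treated plants, and they averaged -1.25 and -0.77 in water plants. For the AT1G67820 row the same averages were -1.71 and -0.998 in treated plants, and -3.11 and -2.71 in water plants. Replicates 5 and 6 thus lay below replicates 1 to 4 in both groups for both rows, a pattern held by 7.56% of all 3439 rows. In the intensities as deposited this order did not hold for AT1G67820 in either group. In water replicates 3 and 4 were lowest, and in treated plants replicate 6 (0.386) lay above replicate 3 (0.368). The mean intensity of the whole array moved with the numbers too. It was 1.03 and 1.02 in treated replicates 1 and 2, 0.890 and 0.900 in treated replicates 3 and 4, and 0.857 and 0.859 in treated replicates 5 and 6. In water it was 1.03 and 1.04 in replicates 1 and 2, 0.911 and 0.931 in replicates 3 and 4, and 0.888 and 0.897 in replicates 5 and 6. The part of this in the members' variation was not tested.

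Replicates with adjacent numbers (1 and 2, 3 and 4, 5 and 6) were alike in the beta subunit row, with a largest gap of 0.06 in treated and 0.08 in water plants on the normalized log2 scale, against a range over all 6 of 0.42 and 0.58. For AT1G67820 the largest gap was 0.24 in treated and 0.29 in water plants, against a range of 0.96 and 0.73. Taken by these pairs of numbers, the log2 difference of the beta subunit row was 1.62, 1.80 and 1.86, and that of AT1G67820 was 1.71, 1.71 and 1.398. On this normalized scale the pair of numbers 5 and 6 had the largest difference of the beta subunit row and the smallest of AT1G67820. In the intensities as deposited, the ratios of the beta subunit row were instead highest in numbers 3 and 4 (3.37 and 3.53, against 3.17 and 3.07 in numbers 5 and 6).

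**Figure D3:**
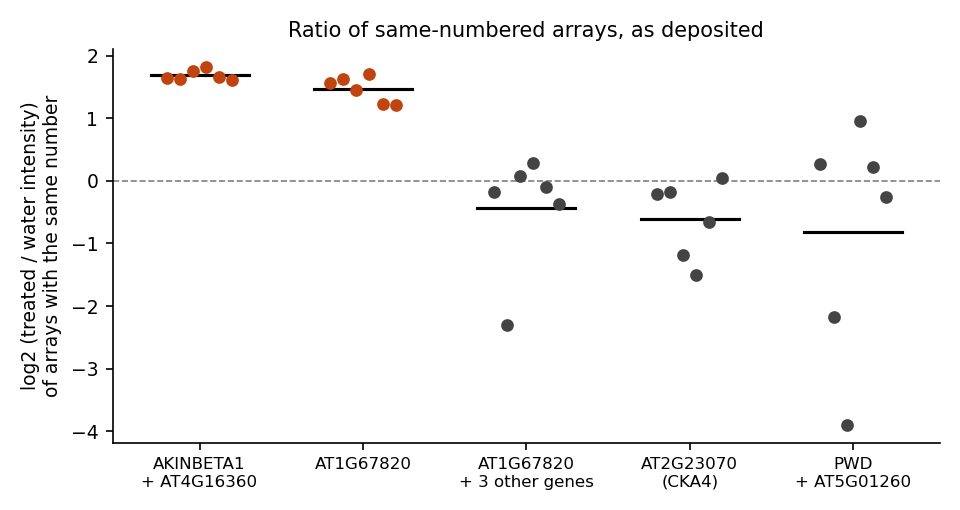
Log2 ratio of treated over water intensity, as deposited, for each of 6 same-numbered pairs of arrays (points) and their mean (line) in 5 array rows; the dashed line marks equal intensity. The points of the AKINBETA1 + AT4G16360 row lie closest together, and all 6 points of both orange rows lie above the dashed line, whereas each grey row has points on both sides of it.

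Deviations of the member rows from their group means moved together over the arrays. Pearson's r was 0.780 over 12 arrays in the normalized log2 values, 0.811 over the treated and 0.867 over the water arrays, and 0.602 over 12 arrays as deposited. The points share arrays, and replicates 5 and 6 lie apart from the others, so r is given as a description. Among 544 rows with 1 gene and no array at 0, 31 had a higher r of deviations with the beta subunit row than AT1G67820 had, and 29 had a higher r with AT1G67820 than the beta subunit row had. The median r over these rows was 0.07 and 0.04. The log2 ratio of the beta subunit row over the AT1G67820 row was also taken within each array, from the intensities as deposited. Multiplying an array by a constant cannot move this ratio, though quantile normalization can. It was 2.07 ± 0.194 in treated plants (1.85 to 2.31) and 1.84 ± 0.253 in water plants (1.52 to 2.19). These ranges overlap, and the groups differ by 0.22. Between same-numbered arrays this log2 ratio was higher in treated plants for 6 of 6 numbers, by 0.00338 to 0.43 (mean 0.22, SD 0.18). On the normalized scale this did not hold for numbers 1 and 2. Their log2 difference was 1.62 in the beta subunit row and 1.71 in the AT1G67820 row. It was larger in the beta subunit row for numbers 3 and 4 (1.80 against 1.71) and numbers 5 and 6 (1.86 against 1.398).

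**Figure D4:**
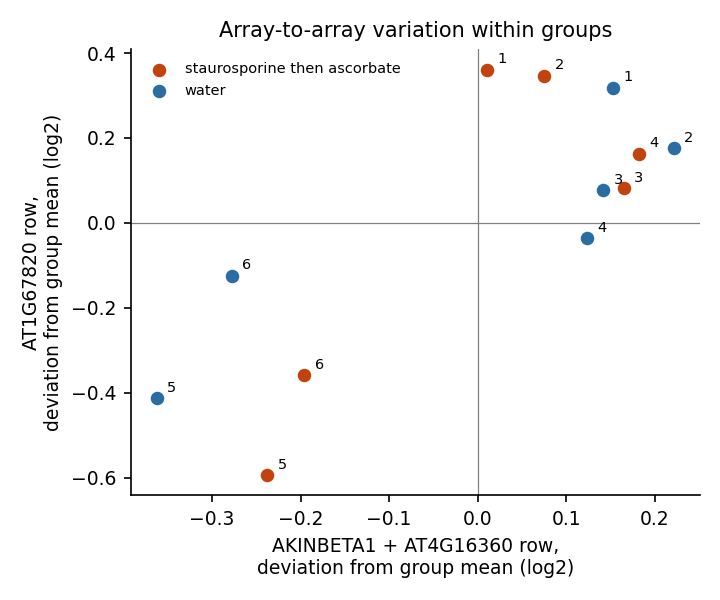
Deviation from the group mean on the normalized log2 scale for the AKINBETA1 + AT4G16360 row (horizontal axis) and the AT1G67820 row (vertical axis), 1 point for each of 12 arrays, numbered by replicate and coloured by group. Replicates 5 and 6 of both groups lie at the lower left, apart from the other arrays.

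The rows most like each member were ranked by Pearson's r of normalized log2 values over the 12 arrays among the same 544 rows, a measure led by the difference between the groups. The closest to the beta subunit row were AT1G72020 (r = 0.981), AT3G58610 (0.976) and AT4G30150 (0.971). AT3G58610 had an intensity of 1.13 ± 0.138 in treated and 0.490 ± 0.0294 in water plants. The closest to AT1G67820 were AT2G35390 (0.967), AT1G13990 (0.967) and PSBW (0.958), a small subunit of photosystem II. PSBW stood at 59.7 ± 18.8 in treated and 38.0 ± 6.61 in water plants. Both member rows were chosen for the difference that leads this measure, so their own r of 0.974 follows from the choice and is not read further.

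By deviations from the group means, which leave the difference between the groups out, the order was another. The rows closest to the beta subunits were then AT3G43610 (0.949), AT5G58330, the NADP-dependent malate dehydrogenase (0.934), and AT5G19540 (0.922). The malate dehydrogenase row had an intensity of 0.621 ± 0.113 in treated and 0.342 ± 0.0767 in water plants, while AT3G43610 stood at 0.664 ± 0.0943 in treated and 0.898 ± 0.235 in water plants. The rows closest to AT1G67820 were AT4G38040 (0.909), AT2G35390 (0.908) and RAP74, a subunit of the general transcription factor TFIIF (0.898). AT2G35390 was thus among the 3 closest rows to AT1G67820 by both measures.

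A second row carried AT1G67820, together with AT1G07160, AT4G08260 and AT2G30020, the last being AP2C1, a 2C phosphatase known to act on stress-activated MAP kinases. Its difference between the groups did not pass the test. Its intensity was 0.325, 0.0586, 0.428, 0.430, 0.477 and 0.310 in treated replicates 1 to 6, against 0.369, 0.288, 0.405, 0.354, 0.512 and 0.401 in water replicates 1 to 6. The groups overlapped, and treated replicate 2 was far below all other arrays. The log2 difference was -0.35 ± 0.457 (SE, limma adjusted p 0.612), with a 95% interval from -1.35 to 0.66. Without treated replicate 2 it was 0.0853 (limma adjusted p 0.824). The row that carries AT1G67820 alone was chosen for its difference, so the rows are set side by side without a test between them. How the shared row divides its signal among 4 genes is not known.

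Few other genes of these pathways had a row of their own. Of 12 genes listed for the SnRK1 complex and its activating kinases, 0 had a row besides the shared beta subunit row. The lists for trehalose phosphate synthesis and SnRK1 targets (17 genes), starvation genes (12), MAP kinases (23) and the core of abscisic acid signalling (20) had no row with a single gene either. Of 26 phosphatases of the 2C class, AT1G67820 alone had one. The annotation did not list 1877 of the 3439 rows, so it is not known whether any of those rows measures one of these genes. No level is given here for the kinase subunits, the SnRK1 targets or the MAP kinases.

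Of 9 plastid kinases and phosphatases, 1 had a row of its own, AT2G23070 (CKA4), the plastid form of the catalytic subunit of casein kinase 2. Its intensity was 0.455, 0.472, 0.203, 0.159, 0.297 and 0.470 in treated replicates 1 to 6, against 0.524, 0.531, 0.461, 0.452, 0.466 and 0.456 in water replicates 1 to 6. Treated replicates 3, 4 and 5 were well below all water arrays, and the other treated arrays lay within the range of the water arrays. The log2 difference was -0.49 ± 0.202 (SE), with a 95% interval from -0.94 to -0.05, and it did not pass after adjustment (limma adjusted p 0.0864). Without treated replicate 2 it was -0.60 and passed (limma adjusted p 0.0392). The other 18 of 19 alternatives did not pass, with limma adjusted p up to 0.273 on means of adjacent arrays.

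Of 22 genes of starch phosphorylation, glucan binding, breakdown and synthesis, 1 was on a row, shared with AT5G01260. It was PWD, phosphoglucan water dikinase, which adds phosphate to starch. This row had an intensity of 0.182, 0.0232, 0.00763, 0.171, 0.309 and 0.177 in treated replicates 1 to 6, against 0.151, 0.105, 0.114, 0.0877, 0.265 and 0.210 in water replicates 1 to 6. Treated replicates 2 and 3 were far below the rest, and the remaining treated arrays lay within or above the range of the water arrays. Treated replicate 3 (0.00763) was also below the floor of 0.0157 given to zeros, since positive values were not raised to it. The log2 difference was -0.62 ± 0.758 (SE, limma adjusted p 0.580), with a 95% interval from -2.29 to 1.05, and without treated replicate 3 it was 0.0149 (limma adjusted p 1).

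The markers of green tissue held 3 rows with a single gene of 18 genes, PSAN, LHB1B2 and PSBW, none of them listed at 0 on any array, and the 10 root markers held none. PSBW was higher (limma adjusted p 0.000353) and PSAN (6.96e-07) and LHB1B2 (0.00512) lower in treated plants. These 3 rows thus did not move in one direction with the members. The marker RCA was on 2 further rows, each shared with AT1G73110, for which no level is given here. The calls of PSBW and LHB1B2 were lost with median centring (limma adjusted p 0.106 and 0.0508) and on means of adjacent arrays (0.0517 and 0.109), and that of PSBW also without normalization (0.0723). The part of these 3 rows in the members' differences was not tested. The marker list was drawn up with earlier results of these data known, so these p-values are given as a description. Over all 10 lists, with the members left out, 4 rows had a single listed gene, of which 1 was higher, 2 were lower and 1 did not pass. The background is the share of all rows called above, which moves with the scaling and with the averaging of adjacent arrays.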

How the data were processed

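The values used are the linear intensities deposited by the authors, 1 for each row of each array. Their scanning, background correction and scaling are not stated in the labels. Array means lay between 0.857 and 1.04, and 10.3% to 15.2% of values on an array were 0, whose meaning is not stated. Signal over background is unknown, and the number of arrays limits the precision.

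Zeros were set to the 1st percentile of positive intensities (0.0157) and log2 values were quantile-normalized, since array medians spanned 0.47 (limit 0.1). Positive values below this floor were kept. Groups, taken from the sample titles, were compared with limma 3.58.1 (R 4.3.3; figures with matplotlib 3.10.9), group as the only term, Benjamini-Hochberg adjustment over 3439 rows and a threshold of 0.05, after a check on simulated data. Rows were named from the platform annotation, which can be old (692 rows with 1 gene, 870 with several, 1877 not listed), and synonyms from RefSeq (TAIR10.1).

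The members and the 10 gene lists were chosen with earlier results of these data known. Named were the members, all list rows with a single gene, rows sharing a gene with the phosphatase or starch lists (added after their values were seen), and the 3 most alike rows per member and measure. Deviations of same-numbered treated and water arrays correlated between 0.302 and 0.425, each above 0.1, so the numbers were taken as pairs. Of the 6 water arrays, 5 correlated most highly with the treated array of their own number. The pairing rests on the values, not the labels. Within groups, arrays with adjacent numbers correlated between -0.0876 and 0.642 and all other pairs at -0.197 or below. Subtracting the group mean by itself pushes such correlations below 0, so only their order is read. Each adjacent pair correlated more highly than any other pair, so 6 arrays per group may overstate the replication. The test kept group as its only term.

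Alternatives were no normalization, median centring, other floors, a filter on dim rows, the replicate block, means of adjacent arrays and each array left out.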

Additional observations from a re-analysis of the deposited data

Results flagged for a closer look

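In 40 groups of 6 values from the 20 rows examined, 1 array stood far apart from its group, which chance alone would flag in about 5% of groups. It was treated replicate 2 in the row shared by AT1G67820, AT1G07160, AT4G08260 and AT2G30020, with a normalized log2 intensity of -3.94, against -1.998 to -0.96 on the other treated arrays.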

How the results depend on the processing

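The log2 difference of the AKINBETA1/AT4G16360 row lay between 1.69 and 1.81, and that of AT1G67820 between 1.44 and 1.73, over 19 alternatives each; with 1 array left out they lay between 1.69 and 1.81 and between 1.52 and 1.73. The count of 1131 changed rows was 418 (236 higher) on means of adjacent arrays and 1010 to 1155 with 1 array left out. The 3 changed rows among the lists were 1 with median centring and 1 on means of adjacent arrays (PSAN in both), and 3 to 4 with 1 array left out. PSBW and LHB1B2 missed the threshold with median centring (limma adjusted p 0.106 and 0.0508) and on means of adjacent arrays (0.0517 and 0.109), and PSBW as deposited (0.0723). The row shared by AT1G67820 and 3 other genes turned to 0.0853 without treated replicate 2 (-0.51 to 0.0853 with 1 array left out), and the row shared by PWD and AT5G01260 turned to 0.16 with the floor at the 10th percentile and to 0.0149 without treated replicate 3 (-0.92 to 0.0149 with 1 array left out); no alternative called either row. The cause was not tested for these changes. With the replicate block the differences of the members stayed at 1.76 and 1.61, and the block changed no call among the 3 shared or plastid kinase rows and the 3 green tissue rows (1252 rows changed in all); no test is given for the rows named for likeness. The planned count of kinases and phosphatases has no value, because the tables hold names without descriptions.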
